A study of Homo sapiens with 21 samples.

Results

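The WT clone of this RUNX1 study carried wild-type RUNX1 under both an HA and a TY1 epitope tag, so its HA and TY1 peak lists are measurements of the same protein in the same cells with different antibodies. Both lists were taken whole, on chromosomes 1 to 22 and X. The HA list held 37472 of the 791439 peaks in the 14 lists of the series and the TY1 list held 59452. Jurkat is an established human T-cell leukaemia line. All clones were untreated, fixed for 15 min and precipitated with anti-HA or anti-TY1 antibody. The WT clone is described by the labels as parental. It gave 1 HA library, 1 TY1 library and 1 control library without a ChIP antibody. G365R, R232fs and Y287X are single knock-in clones in which HA marked mutant RUNX1 and TY1 marked wild-type RUNX1. There were 2 clones of each, and each clone gave 1 HA and 1 TY1 list. The 7 control libraries of the series had no list analysed here. The labels do not say how the tags were placed in the WT clone, and a single WT clone with 1 list a side gives no replicate error. Differences between its tags are therefore described and ranked, not tested.

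RUNX1 is a transcription factor that binds DNA through its Runt domain, together with the partner protein CBFB, and it directs blood cell development and T-cell gene expression. An epitope tag is a short peptide fused to a protein so that an antibody against the tag can precipitate it. In chromatin immunoprecipitation the DNA fixed to the precipitated protein is sequenced, and a peak is a place where fragments pile up above the local background. Antibodies against different tags can differ in how much they recover and in what they bind besides the tag, so lists of 1 protein under 2 tags give the scale on which mutant (HA) and wild-type (TY1) lists of the other clones can be read.

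TY1 gave the longer list. The ratio of HA to TY1 peak number was 0.63, and HA peaks covered 17.5 Mb, against 30.1 Mb for TY1 peaks. Of these, 14.8 Mb lay in both, which is 84.9% of the HA length and 49.3% of the TY1 length. The fold enrichment of a peak, given by the authors' caller, is the height of the pile over the local background, each plus 1. Its median was 3.85 in the HA list and 3.84 in the TY1 list, and its highest value was 72.3 in the HA list and 61.04 in the TY1 list. Peaks of fold 5 or more numbered 11071 in the HA list (29.5%) and 18721 in the TY1 list (31.5%). Median peak width was 390 bp for HA and 422 bp for TY1. The lowest −log10 q was 1.30 in the HA list and 1.31 in the TY1 list, so that both lists end at about the same significance. The TY1 list was thus the longer at nearly the same median fold.

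Library depth is not in a peak list, but fold and −log10 p together fix how many fragments lay at each summit. Those counts were whole numbers in the HA list. In the TY1 list each fragment added 0.8195 to the pile, so its piles had been scaled down. The commonest background was 4.59 fragments per base in the HA list and 5.88 in the TY1 list when counted in unscaled fragments, a ratio of 0.781. Read as relative depth, this ratio assumes that both lists were called against the same control with the caller's usual background model. It also assumes the same fragment length in both calls. Neither assumption was checked. The weakest peak called had 14 fragments at its summit in the HA list and 19 in the TY1 list, and the median peak had 41 in the HA list and 74 in the TY1 list. Depth and antibody differ together between these lists and cannot be told apart from them alone.

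Strong RUNX1 sites were found with both tags. A TY1 summit lay within 100 bp of 99.0% of the 100 strongest HA peaks by −log10 p (exact binomial 95% interval 94.6% to 99.97%, which covers counting error only, as do all intervals here). The share was 98.6% at HA ranks 1001 to 5000, 87.8% at ranks 10001 to 20000 and 37.6% at ranks 30001 to 37472. In the other direction, an HA summit lay within 100 bp of 100% of the 100 strongest TY1 peaks (96.4% to 100%), 98.9% at TY1 ranks 1001 to 5000, 76.2% at ranks 10001 to 20000 and 14.6% at ranks 40001 to 59452. Sharing was therefore almost complete at the top of both lists and fell with rank in both. Over whole lists, 27686 HA peaks had a TY1 summit within 100 bp, which is 73.9% of the HA list (73.4% to 74.3%) and 46.6% of the TY1 list (46.2% to 47.0%).

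**Figure D1:**
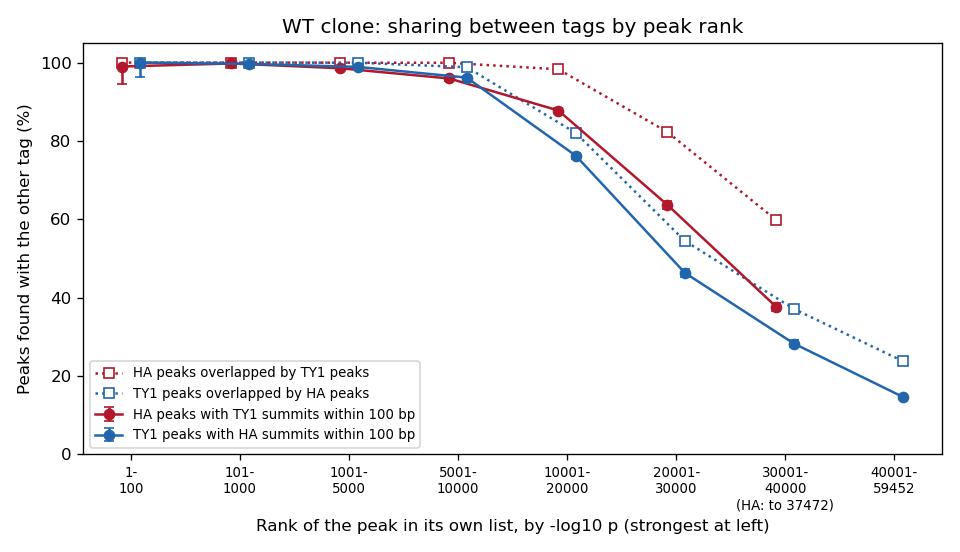
Share of WT peaks found with the other tag (y axis, %) against the rank of the peak in its own list (x axis, classes of rank by −log10 p), for HA in red and TY1 in blue. Filled points are peaks with a summit of the other tag within 100 bp, with exact binomial 95% intervals, and open squares are peaks overlapped by 1 bp or more. Sharing within 100 bp was at or above 95.9% down to rank 10000 in both lists and reached 37.6% in the last HA class and 14.6% in the last TY1 class.

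The strongest sites shared by the tags give the scale of the signal. On chromosome 4, chr4:164816309-164817181 (hg19, the build of the deposited lists) had a fold of 68.5 with HA and 61.04 with TY1 and stood at rank 3 in the HA list and rank 1 in the TY1 list. A peak at chr10:125531202-125533372 had a fold of 72.3 with HA and 54.6 with TY1. Another peak of chromosome 10, chr10:96058701-96060225, had a fold of 58.7 with HA and 51.5 with TY1. The summits of these pairs lay 11 to 17 bp apart, and all 12 lists of the mutant clones had a peak at each. At chr9:83616911-83618240 the fold was 71.2 with HA and 56.5 with TY1, with summits 12 bp apart and again a peak in all 12 other lists. At chr1:152364795-152366095 it was 63.9 with HA and 58.4 with TY1, with summits 2 bp apart, and 9 of the 12 lists had a peak. In these 5 pairs the HA fold was the higher, although most pairs went the other way, as described below. The genes at or near these positions were not determined, since no hg19 annotation was used here.

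Where summits of the tags were paired they mostly lay close together, and closest at the strongest peaks. Taking mutual nearest summits up to 500 bp apart gave 31636 pairs, with a median distance of 29 bp (interquartile range 12 to 61 bp). For the 100 strongest HA peaks the median distance was 10.5 bp, for ranks 5001 to 10000 it was 21 bp, and for ranks 30001 to 37472 it was 63 bp. The TY1 summit lay to the right of the HA summit in 15547 pairs, to the left in 15697 and on the same base in 392, with a median signed distance of 0 bp. There was thus no common shift of one tag against the other. A few peaks were divided differently: 308 HA peaks were each overlapped by 2 or more TY1 peaks, and 874 TY1 peaks by 2 or more HA peaks.

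The height order of shared sites was also similar, but the TY1 values were mostly higher. At the 27686 pairs within 100 bp the Spearman correlation was 0.888 for fold, 0.960 for fragments at the summit and 0.692 for peak width. These describe regions, which are not replicates. The local backgrounds of the pairs correlated at 0.979, and which control each list was called against is not known here. The median fold of the pairs was 4.22 with HA and 5.55 with TY1. The median ratio of HA to TY1 fold was 0.739, with 90% of pairs between 0.507 and 1.12, and HA was the higher in 3189 pairs (11.5%). With the pairs divided into 5 classes of equal size by the mean score of both tags, the ratio was 0.698 in the weakest class, 0.768 in the next and 0.754 in the strongest, so no steady trend with strength appeared. Fragments at the summit had a median ratio of 0.575. Shared peaks were narrower with HA, with a median of 418 bp for HA and 541 bp for TY1.

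**Figure D2:**
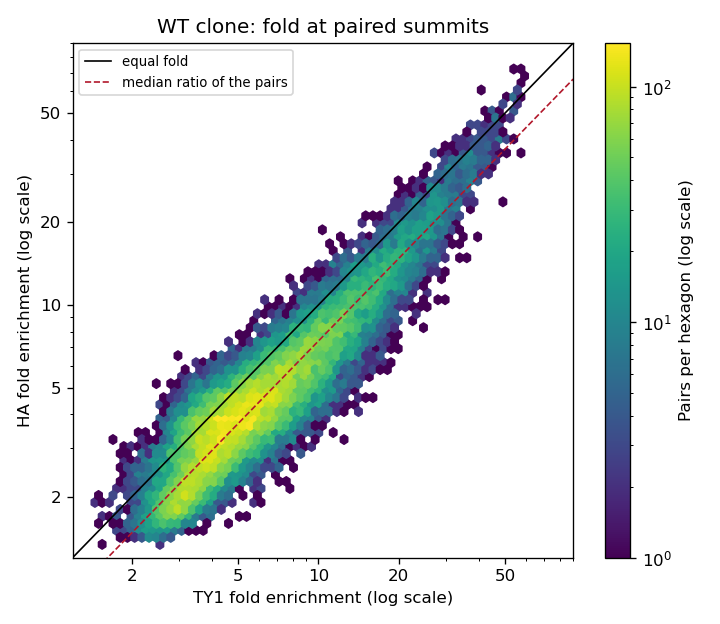
HA fold enrichment (y axis, log scale) against TY1 fold enrichment (x axis, log scale) at 27686 WT summit pairs within 100 bp, coloured by the number of pairs in each hexagon. The solid line marks equal fold and the dashed line the median ratio of 0.739, and most pairs lie below the solid line, with HA higher in 11.5%.

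Cutting the lists to equal length did not make them the same. With each list cut to its 37472 strongest peaks by −log10 p, 64.9% of peaks had a summit of the other tag within 100 bp. At 10000 peaks each the share was 80.8%, and at 1000 each it was 74.3%. Of the 100 strongest of each list, 64 were shared. At these short lengths the peaks that did not match were almost all present lower down: only 3 of the first 1000 HA peaks had no summit anywhere in the whole TY1 list within 100 bp, and 3 of the first 1000 TY1 peaks had none in the whole HA list. At the top, then, it was the order and not the presence of sites that differed.

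Set beside the other clones, the WT clone's tags shared about as much as those of the mutant clones. With all 14 lists cut to 30563 peaks, the length of the shortest, 69.9% of WT HA peaks had a WT TY1 summit within 100 bp, and 9212 peaks (30.1%) had none. The share without one was 34.1% and 35.7% in the G365R clones, 29.6% and 20.7% in the R232fs clones and 24.3% and 18.5% in the Y287X clones. At this length, HA peaks of the truncating clones, R232fs (a frameshift) and Y287X (a stop codon), had a TY1 summit at least as often as WT HA peaks. The lists were not cut alike, however. The HA lists of the truncating clones held 51892 to 86433 peaks and were cut to their stronger ones. The WT HA list held 37472 peaks. The G365R HA lists, with 30609 and 30563, stayed almost whole with their weak peaks. Sharing between the WT tags fell with rank. The part of list length in the order of the clones was not tested, nor were the differences between them. The median HA to TY1 fold ratio was 0.739 in WT, 0.67 and 0.745 in G365R, 0.978 and 0.876 in R232fs and 0.851 and 0.825 in Y287X, and the median distance of summit pairs was 29 bp in WT and 23 to 33 bp in the others. The R232fs and Y287X lists reached a highest fold of 174 to 369, against 61.04 to 89.3 in the WT and G365R lists. Genotype and kind of list therefore go together and cannot be told apart.

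A list of another clone was at times nearer than the other tag of the same clone. At equal length 79.3% and 80.0% of WT TY1 peaks had a summit of the first and second G365R TY1 lists, against 69.9% with a WT HA summit. The WT HA list did not do the same: 60.6% and 61.2% of its peaks were in the G365R HA lists and 62.9% and 67.4% in the G365R TY1 lists. With the truncating clones, WT HA peaks were shared at 38.1% to 52.6% with HA lists and 39.4% to 58.6% with TY1 lists. WT TY1 peaks were shared at 52.5% to 64.4% with HA lists and 54.5% to 71.0% with TY1 lists. In each of the 6 mutant clones the WT TY1 list shared more with the clone's TY1 list than the WT HA list did with its HA list. The WT lists were not cut alike for this. The TY1 list, with 59452 peaks, was cut to its stronger ones. The HA list, with 37472, kept more of its weak peaks and ended at a lower −log10 q. Sharing between the WT tags fell with rank, and the part of the cut in these differences was not tested. These shares rest on single WT lists, and their differences were not tested.

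Peaks of a single tag were mostly weak. No TY1 peak overlapped 4957 HA peaks (13.2%), and no HA peak overlapped 27531 TY1 peaks (46.3%). The HA-only peaks had a median fold of 3.40, against 4.06 for HA peaks that were overlapped, and a median of 20 fragments at the summit, against 49. The TY1-only peaks had a median fold of 3.02, against 5.24 for overlapped ones, and a median of 56 fragments, against 91. Fold 5 or more was reached by 60 HA-only peaks (1.21%) and 1675 TY1-only peaks (6.08%). By these medians, HA-only peaks had a slightly higher fold on fewer fragments than TY1-only peaks. The 90th percentile of fold went the other way, at 4.12 for HA-only and 4.55 for TY1-only peaks.

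Local background, in each list's own scaled units, differed between these classes. Among HA peaks with a background under 5 fragments per base, 23.2% had no overlapping TY1 peak. This was 15.9% at 5 to 10, 3.86% at 10 to 20, 0.557% at 40 to 80 and 2.90% at 80 or more. Among TY1 peaks the share without an overlapping HA peak was 40.9% at a background under 5, 39.5% at 5 to 10, 44.0% at 10 to 20, 58.5% at 40 to 80 and 60.5% at 80 or more. Of the 4957 HA-only peaks, 3288 lay at a background under 5 and 1365 at 5 to 10. TY1-only peaks were also most numerous at a background under 5 (6895), but 6044 lay at 40 to 80, where 25 HA-only peaks did. Background is part of the fold and of the test that called the peaks, and its part in the difference between tags was not tested.

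**Figure D3:**
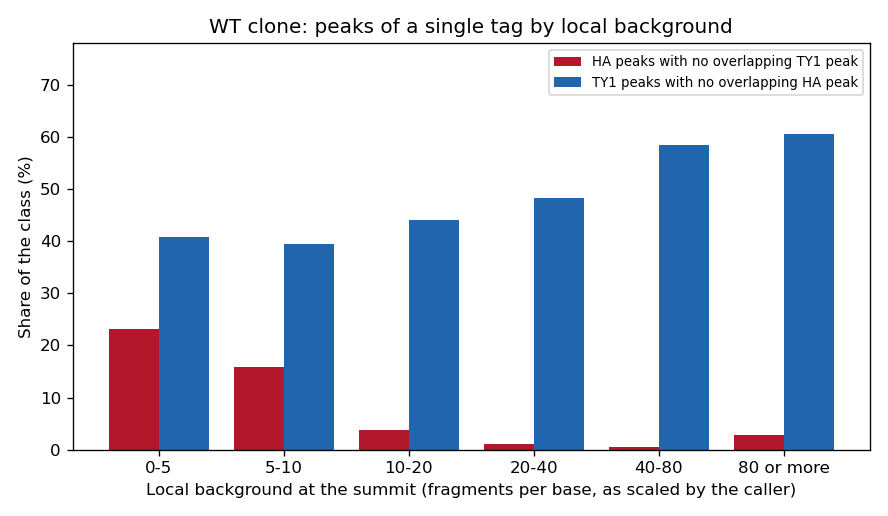
Share of WT peaks with no overlapping peak of the other tag (y axis, %) by the local background at the summit (x axis, fragments per base as scaled by the caller), HA in red beside TY1 in blue. The HA bars are lowest, at 0.557%, at a background of 40 to 80, while the TY1 bars reach 58.5% in that class.

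TY1-only sites were found in more lists of the other clones than HA-only sites. Of the 12 lists of the mutant clones, a median of 1 overlapped an HA-only peak and a median of 7 overlapped a TY1-only peak. No other list overlapped 2065 HA-only peaks (41.7%) and 2677 TY1-only peaks (9.72%). All 12 overlapped 8 HA-only peaks and 845 TY1-only peaks. Among the peaks of fold 5 or more, 8 of 60 HA-only peaks and 67 of 1675 TY1-only peaks were in no other list, and the median number of lists was 2.5 for HA-only and 4 for TY1-only peaks. The gap between the tags was thus smaller among these stronger peaks. Longer lists overlap more peaks by their length alone, so these counts depend on how many peaks each of the 12 lists held. HA-only peaks also had fewer fragments than TY1-only peaks (median 20 against 56) and were narrower (median 281 bp against 328 bp). The part of this in the difference between the sets was not tested.

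The 5 strongest TY1-only peaks had folds of 11.3 to 12.4, and they were found in 3 to 12 of the other lists. The peak at chr1:38971628-38972045 had a TY1 fold of 12.4 with 87 fragments, and the nearest HA summit was 53566 bp away. All 12 lists of the mutant clones, HA lists included, had a peak there, with folds of 3.71 to 10.2. The peaks at chr14:59978623-59979096 (fold 11.9) and chr2:120399058-120399545 (fold 11.5) were likewise in all 12 lists. The peak at chr7:25300629-25301163 (fold 11.9) was in 3 lists, all with TY1, and the peak at chr10:77251818-77252274 (fold 11.3) was in 7. By −log10 p the first TY1 peak without an HA peak stood at rank 4923 (chr1:235257086-235257551, fold 6.79). That region was chosen after its values were seen.

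The 3 HA-only peaks of highest fold lay within 88.9 kb of each other on chromosome 21. The first, chr21:36171414-36171867, had an HA fold of 9.66 with 53 fragments. In the G365R clones this site had a fold of 30.9 and 19.5 in the HA lists and 34.5 and 28.3 in the TY1 lists. The second, chr21:36164295-36165008, had an HA fold of 8.94 with 172 fragments and stood at rank 1842 by −log10 p, the only HA peak in the first 5000 that no TY1 peak overlapped. Its fold was 25.8 and 14.8 in the G365R HA lists and 25.0 and 17.2 in the G365R TY1 lists. The third, chr21:36252746-36253171, had an HA fold of 6.98, against 26.3 and 17.1 in the G365R HA lists and 33.9 and 31.07 in the G365R TY1 lists. None of the 8 lists of the truncating clones had a peak at any of these 3 sites.

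Further peaks of this stretch were picked out by the same distribution. In all, 22 HA-only peaks were overlapped in all 4 G365R lists and in none of the 8 truncating lists, which is 0.444% of the HA-only peaks. Of the 22, 6 (27.3%) lay on this part of chromosome 21 and 5 (22.7%) on chromosome 13, whose HA-only peaks are described below. Of all 4957 HA-only peaks, 90 lay on the whole of chromosome 21 and 453 on chromosome 13. The other 3 on chromosome 21 were chr21:36085003-36085353, chr21:36206554-36206856 and chr21:36231613-36231855, with HA folds of 3.10, 2.77 and 2.54. A further site of the stretch, chr21:36259093-36259568, was the paired site where HA most exceeded TY1 in order of fold, with a fold of 3.28 with HA and 1.70 with TY1. There 6 of the 8 truncating lists also had a peak, with folds of 2.23 to 3.12, and the 4 G365R lists had folds of 6.81 to 8.39. At these 7 sites the WT HA list had 7 peaks and the WT TY1 list 1, and each G365R list had 7 whichever the tag. The HA-only sites lacked a WT TY1 peak by definition, and the other 3 were also chosen for their G365R peaks. These counts were therefore fixed in advance, except for the G365R peaks at the first 3 sites and the counts at the paired site. The gene or feature at these hg19 positions was not determined here. A peak list does not tell DNA bound by the protein from DNA present in extra copies, so whether these 7 peaks are binding sites was not tested. RefSeq's gene table of assembly GRCh38.p14 also places RUNX1 itself on chromosome 21, but its positions belong to another build and were not compared. These sites were picked out after their values were seen.

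The remaining named HA-only peaks were weaker. The peak at chr10:98059621-98060012 had a fold of 6.82, had a TY1 summit 490 bp away, and was in 10 of the 12 other lists with folds of 3.71 to 18.6. The peak at chr3:18069893-18070285 had a fold of 5.90 and was in 1 other list. Besides HA-only peaks, 73 TY1-only peaks (0.265%) were in all 4 G365R lists and no truncating list. They were spread over 21 of the 23 chromosomes, and the strongest was chr3:131501589-131502007 with a fold of 8.91.

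For sites found with both tags, the order of fold was compared by ranking the 27686 pairs by fold within each list and turning the ranks into normal scores, in which 1 is 1 SD. The SD of the HA minus TY1 score was 0.46. It was above 1 in 709 pairs (2.56%) and below −1 in 356 (1.29%). The median HA background of the pairs above 1 was 6.67 fragments per base, that of the pairs below −1 was 24.4, and that of all others was 8.91. The 100 pairs with the largest HA excess departed from this, with a median HA background of 15.9, and the 100 with the largest HA deficit had 34.5. After the chromosome 21 site, the pairs with the largest excess of HA were chr1:55803653-55804177 (fold 5.26 with HA, 2.48 with TY1), chrX:61699775-61700169 (2.92 with HA, 1.77 with TY1), chr3:38462932-38463509 (3.12 with HA, 1.89 with TY1) and chr17:22260416-22261472 (2.04 with HA, 1.50 with TY1). The TY1 peaks of these 5 pairs had a −log10 q of 1.57 to 6.30 and stood at ranks 47214 to 59339 of the 59452 TY1 peaks.

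The largest deficit of HA was at chr7:76256530-76256883, with a fold of 1.34 with HA and 2.62 with TY1. It was followed by chrX:62974991-62975379 (1.68 with HA, 5.33 with TY1), chrX:49091928-49092325 (1.62 with HA, 4.62 with TY1), chrX:129535637-129535925 (1.72 with HA, 5.21 with TY1) and chr19:17448103-17448342 (1.54 with HA, 3.84 with TY1). The HA peaks of these 5 pairs had a −log10 q of 1.35 to 2.08, near the foot of the HA list, and each site was in 10 to 12 of the 12 other lists.

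The other clones, which had no part in choosing these pairs, allow a second look. Of the 100 pairs with the largest HA excess in WT, 35 and 33 had summits with both tags in the G365R clones, and the HA score was the higher in 33 of 35 and 32 of 33. In the R232fs clones it was the higher in 14 of 21 and 14 of 20, and in the Y287X clones in 18 of 25 and 16 of 21. The median score differences were 0.97 and 1.19 in the G365R clones and 0.29 to 0.37 in the truncating clones. Over all measured pairs the HA score was the higher in 49.2% to 52.5% in the mutant clones. Of the 100 pairs with the largest HA deficit, HA was the higher in 8 of 58 and 12 of 51 measured in the G365R clones, with median score differences of −0.57 and −0.43. In the R232fs clones it was the higher in 47 of 77 and 36 of 70, and in the Y287X clones in 38 of 73 and 39 of 73, with median differences of 0.02 to 0.18. The order of the 2 tags in WT thus recurred in both G365R clones, in which HA marks mutant RUNX1. In the truncating clones HA was still the higher in 66.7% to 76.2% of the measured pairs with an HA excess. Of the pairs with an HA deficit it was the higher in 51.4% to 61.0%, so the deficit did not recur there. Members of these sets are not replicates, and the difference between genotypes was not tested.

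Whether regions of a single WT tag followed that tag in the mutant clones was the 1 comparison with replicates. In all 12 lists of these clones HA marked mutant and TY1 wild-type RUNX1, so tag and mutation cannot be told apart in it. At equal list length, 9212 regions of each WT tag had no summit of the other tag within 100 bp. They are called HA-only and TY1-only here, and differ from the peaks without overlap described above. In the whole list of the other tag, 5366 HA-only and 8333 TY1-only regions had no summit within 100 bp. The cut HA list also ended at a lower −log10 q than the cut TY1 list. Both sets were looked up in each of the 12 lists of the mutant clones, which did not choose them. For each list the share of TY1-only regions found was subtracted from the share of HA-only regions found. The mean of this value was 15.2 percentage points higher in HA than in TY1 lists (exact permutation of tags within genotype, 2-sided p = 0.102, where the arrangements allow 0.00926 at the smallest). With clones paired the exact p was 0.125. The difference did not pass the threshold of 0.05. It was 42.2 points in G365R (42.9 and 41.5 in its clones), −1.22 points in R232fs (−4.58 and 2.14) and 4.62 points in Y287X (6.18 and 3.07). In the truncating clones alone it was 1.70 points (exact p = 0.611), and the 6 arrangements of the G365R lists alone allow no p below 0.333.

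The lists behind these values show where the G365R difference lay. Of the WT TY1-only regions, 33.6% and 24.0% were in the G365R HA lists and 66.6% and 59.0% in the G365R TY1 lists. Of the WT HA-only regions, 23.8% and 25.8% were in the G365R HA lists and 13.9% and 19.4% in the G365R TY1 lists. The 8 truncating lists held 55.1% to 59.9% of the TY1-only regions and 9.48% to 17.2% of the HA-only regions, with either tag. TY1-only regions were found more often than HA-only regions in 11 of the 12 lists, the second G365R HA list being the exception. The 2 sets also differed in the −log10 q at which their lists were cut. The part of that in this count was not tested. Nor were the mutant lists cut alike. The G365R HA lists, with 30609 and 30563 peaks, stayed almost whole with their weak peaks. The G365R TY1 lists, with 57378 and 61793 peaks, were cut to their stronger ones. The part of this in the G365R difference was not tested either. Regions of both WT lists were found at 76.4% to 88.1% in the G365R lists and at 50.3% to 76.4% in the truncating lists.

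**Figure D4:**
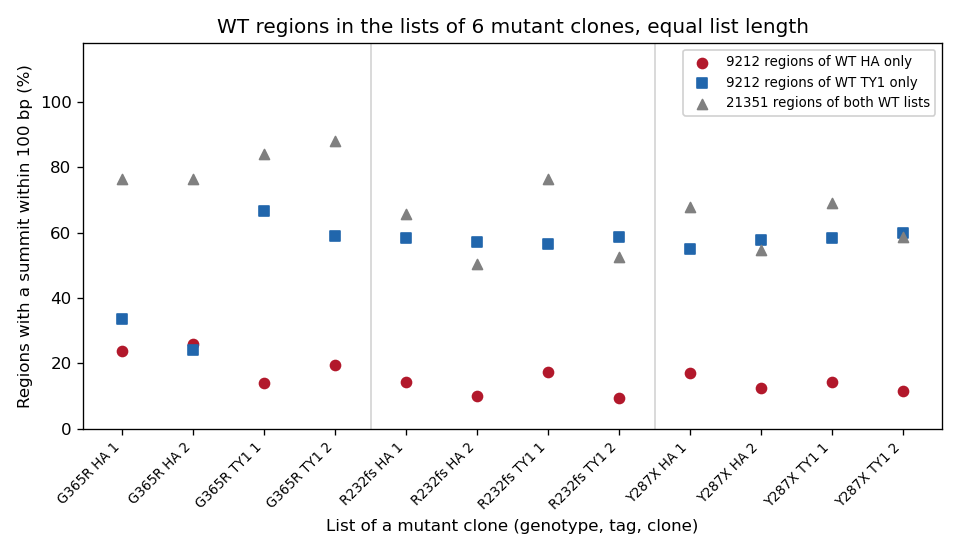
Share of WT regions with a summit within 100 bp (y axis, %) in each of the 12 lists of the mutant clones (x axis), all lists cut to 30563 peaks. Red circles are regions of WT HA only, blue squares regions of WT TY1 only and grey triangles regions of both, as defined at that length. The blue squares are at 33.6% and 24.0% in the G365R HA lists and at 55.1% or more in the 10 other lists.

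The tags also differed by chromosome. Relative to the ratio of the whole clone, the HA over TY1 peak ratio of WT was highest on chromosome 13, at 1.33, and lowest on chromosome 19, at 0.697. On the other chromosomes it ran from 0.844 on chromosome 22 to 1.11 on chromosome 21. Among peaks of fold 5 or more these extremes did not hold. There the plain HA over TY1 ratio was 0.591 over all chromosomes, highest on chromosome 21 (0.668) and lowest on X (0.491). It was 0.654 on chromosome 13 and 0.523 on chromosome 19. On chromosome 13, 453 HA peaks (25.0%) had no overlapping TY1 peak, against 13.2% over all chromosomes. On chromosome 19, 44 HA peaks (4.86%) had none, and 58.9% of TY1 peaks had no overlapping HA peak. The median local background of HA peaks was 5.60 on chromosome 13, as it was on chromosomes 5 and 8, and 26.0 on chromosome 19, the highest of any chromosome. Copy number of the clones was not analysed here.

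Both G365R clones lay on the same side of 1 as WT on these chromosomes, as did some of the truncating clones on each. On chromosome 13 the relative ratio was 1.26 and 1.12 in G365R, 0.908 and 0.942 in R232fs and 1.02 and 0.988 in Y287X, against 1.33 in WT. On chromosome 19 it was 0.789 and 0.864 in G365R, 1.04 and 0.921 in R232fs and 0.931 and 0.997 in Y287X, against 0.697 in WT. On chromosome X it was below 1 in every clone. There it was 0.862 in WT, 0.895 and 0.844 in G365R, 0.810 and 0.786 in R232fs and 0.939 and 0.9996 in Y287X. Chromosome 13 was the highest of the 23 in WT and in both G365R clones, and in none of the 4 truncating clones.

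**Figure D5:**
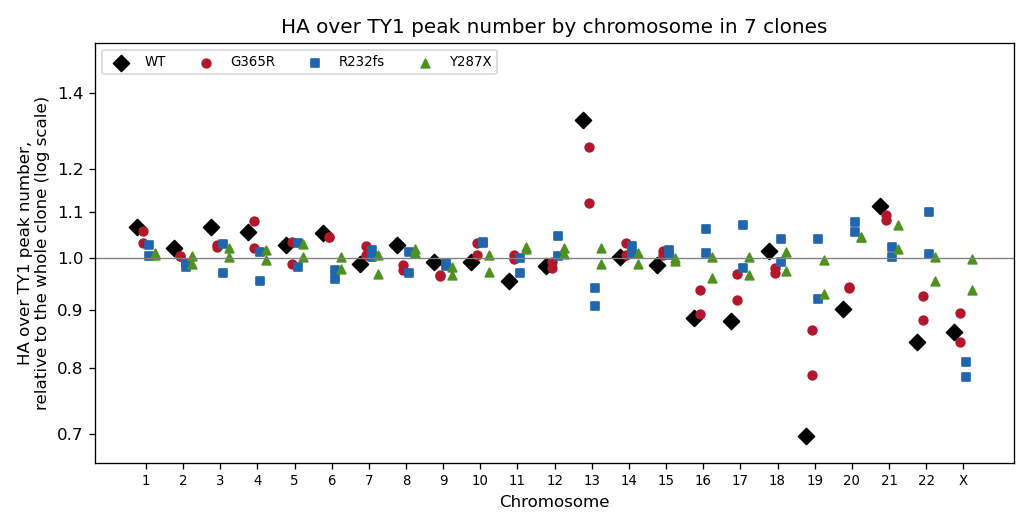
HA over TY1 peak number of each chromosome divided by that of the whole clone (y axis, log scale) for chromosomes 1 to 22 and X (x axis), with 1 point per clone. WT (black diamonds) lies at 1.33 on chromosome 13 and 0.697 on chromosome 19, with both G365R clones (red circles) on the same side of 1 as WT on these chromosomes.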

How the data were processed

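The deposited files were narrowPeak lists, 1 per library, with 7 control libraries without a list analysed here. The submitters' processing notes name MACS2 2.2.7.1, Bowtie2 2.2.9, CASAVA 1.8 and genome build hg19. Not given in the sources used here are the caller settings and which control went with which list. The authors deposited for every peak a score, a fold enrichment (a linear ratio), −log10 p and −log10 q values and the summit's offset from the start. Peaks off chromosomes 1 to 22 and X were left out (774 of 38246 in WT HA, 1229 of 60681 in WT TY1). No list of artefact-prone regions was applied.

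Summits were paired as mutual nearest neighbours, and lists were ordered by −log10 p, then cut. Fragments at summits were solved from fold and −log10 p under a Poisson model with a pseudocount of 1 in the fold (100% of HA and 99.5% of TY1 peaks solved). On simulated peaks 100% of fragment numbers and 99.97% of pairs were recovered. Intervals are exact Clopper-Pearson at 95%. Where the labels give only replicate numbers, clones were paired by the clone names of the deposited lists. Named regions were the 5 strongest pairs by the worse of their 2 ranks, the 5 HA-only and the 5 TY1-only peaks of highest fold, and the 5 pairs of largest score difference in each direction. Members and rules were chosen with earlier results of these data known. Coordinates count from 1. Python 3.11.15, numpy 2.4.6, pandas 2.3.3, scipy 1.17.1 and matplotlib 3.10.9 were used.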

Additional observations from a re-analysis of the deposited data

Results flagged for a closer look

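Chromosomes 13 and 22 had HA over TY1 peak ratios, relative to the whole clone, on opposite sides of 1 in different genotypes. On chromosome 13 both G365R clones lay above 1 and both R232fs clones below it, and the G365R mean exceeded the R232fs mean by 0.36 on the log2 scale. On chromosome 22 both G365R clones lay below 1 and both R232fs clones above it, and the difference was −0.22. WT lay on the G365R side on both chromosomes. With 2 clones a genotype, neither difference was tested. G365R and R232fs lists are also different kinds of list, with highest folds of 61.04 to 89.3 in WT and G365R and 174 to 369 in the truncating clones.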

How the results depend on the processing

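Of 33 alternatives 21 moved a value and none turned a direction. The other 12 were all of the test of following the tag, which passed 0.05 in none. The HA to TY1 peak number ratio was 0.591 for peaks of fold 5 or more and 0.513 at −log10 q of 10 or more. HA peaks shared were 58.6% within 50 bp, 82.1% within 250 bp, 86.8% by overlap and 93.4% at −log10 q of 10 or more. TY1 peaks shared were 36.9%, 51.7%, 53.7% and 65.8% under the same settings. At equal length the share was 52.9% within 50 bp, 69.5% within 250 bp, 72.9% by overlap, 63.5% ordered by fold, 57.4% ordered by summit pile and 80.8% for 10000 peaks. The median pair distance was 24 bp for pairs within 100 bp and 26 bp at equal length. The correlation was 0.841 for −log10 p, 0.960 for the pile and 0.919 at equal length. The difference in following the tag was 15.2 points with the replicate block (exact p = 0.125), 10.7 with lists as deposited (exact p = 0.213), 17.6 within 250 bp (exact p = 0.13) and 8.24 ordered by fold (exact permutation p = 0.0648). Leaving out 1 clone gave 14.1 to 16.3 points (exact p of 0.0556 to 0.306). In the truncating clones alone it was 1.70 points and in G365R alone 42.2 points, with so few lists that no p below 0.0556 and 0.333 could be had. Limits are the lone WT clone, the unknown depth, and weak peaks near the calling threshold, whose absence from a list does not show absence of binding.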

Other observations

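Overlap and summit position parted at the foot of the lists. Of HA peaks at ranks 30001 to 37472, 59.7% were overlapped by a TY1 peak but 37.6% had its summit within 100 bp. Over the whole list 4829 HA peaks (12.9%) and 4235 TY1 peaks (7.12%) were overlapped with no summit of the other tag within 100 bp. Of the single-tag peaks, 1557 of 4957 HA-only (31.4%) and 16327 of 27531 TY1-only (59.3%) lay more than 10 kb from any summit of the other tag. TY1-only peaks were measured against the shorter list, of 37472 HA peaks, and HA-only peaks against 59452 TY1 peaks. These shares therefore depend on list length, and they were not compared at equal length.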
